A study of Mus musculus with 2 samples.

Results

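The cytosolic ribosomal proteins are the protein parts of the ribosome that translates nuclear messages in the cytoplasm. Their genes were chosen by symbol alone: protein-coding genes of GENCODE M21 named Rps or Rpl with a number and at most 1 of the letters a, l, x or y, together with Rplp0 to Rplp2 and Rpsa. The ribosomal S6 kinases and genes annotated as pseudogenes were left out. Of 55401 genes in the count tables, 80 fitted: 30 proteins of the small (40S) subunit, 43 of the large (60S) subunit, 3 of the P-stalk, and 4 paralogs named Rpl3l, Rpl10l, Rpl39l and Rps27l. The genes lie on 19 chromosomes, with 14 of them on chromosome 7. Hearts came from C57BL/6 mice, and every heart had undergone transverse aortic constriction (TAC), in which a suture narrows the aortic arch and the left ventricle must pump against raised pressure. The labels give TAC as the treatment of the first group, and TAC with dioscin, a plant steroidal saponin, as that of the second, with dioscin given for 4 weeks. A treatment protocol worded alike for both samples does not say which sample received dioscin, so the TAC group is taken as untreated on its treatment label. Each group had 1 library, made from Trizol-extracted RNA of frozen hearts. The labels state neither age nor sex nor the number of hearts in a library, no hearts without surgery were analysed here, and without replicates no difference below was tested between animals.

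Each ribosome holds 1 copy of nearly every ribosomal protein, and cells make the proteins in matched amounts, destroying copies that find no partner. Messages for ribosomal proteins begin with a C followed by a run of pyrimidines, the 5′ terminal oligopyrimidine (TOP) tract, through which the growth kinase mTOR and the RNA-binding protein Larp1 control how strongly they are translated. Protein synthesis is part of the growth of heart muscle under pressure load. The question here is how the levels of these messages compare between the hearts with and without dioscin.

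The counts were deep. The TAC library held 16782741 reads in genes and the dioscin library 17612259, and mitochondrially encoded genes took 31.6% and 25.5% of them. Heart muscle was plainly sampled: the 10 listed genes of ventricular and general heart muscle, most of them shared with the atria, summed to 59519 CPM with TAC and 69806 CPM with dioscin. Myl2, the ventricular light chain, had 8800 CPM with TAC and 6907 CPM with dioscin. CPM here is a count relative to its library's size after scaling by TMM, a method that sets the bulk of genes equal between libraries. Of the 80 members, 77 reached 1 CPM in at least 1 library. The other 3 were Rpl24 (8 counts with TAC, 6 with dioscin), Rpl39l (3 and 8) and Rpl10l (0 in both, which allows up to 3 counts). Rpl10l is best known from male germ cells and Rpl39l from testis, whereas Rpl24 encodes a standard 60S protein. RNA of heart tissue was measured in bulk, so fewer cells of a type and less RNA per cell cannot be told apart. Whether both libraries held the same parts of the heart was not tested, and the atrial markers given further on differed widely.

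The start of these messages is shown first because the TOP tract is the feature the family is known for. RefSeq promoter windows on GRCm38.p6 were matched for 60 of the 80 genes, with 72 annotated starts between them. The 8 windows below run from 10 bases before the annotated start to 20 bases of the transcript from it. Capitals mark an unbroken run of C and T that opens with a C on the first transcribed base, where the run has at least 5 bases. Rps6, Rpl15, Rplp2, Rpl38, Rpl28 and Rps10 carry such a run, with ratios below from 0.432 to 1.68, while Rpl4 and Rpl3l have none at the annotated start.
Rps6 (chr4:86857348-86857377, minus strand): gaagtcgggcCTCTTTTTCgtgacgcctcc
Rpl15 (chr14:18270967-18270996, minus strand): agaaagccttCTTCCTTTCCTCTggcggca
Rplp2 (chr7:141447641-141447670, plus strand): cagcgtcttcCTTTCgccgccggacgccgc
Rpl38 (chr11:114668570-114668599, plus strand): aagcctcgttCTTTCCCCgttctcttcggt
Rpl28 (chr7:4792955-4792984, plus strand): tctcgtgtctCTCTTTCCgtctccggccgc
Rps10 (chr17:27635225-27635254, minus strand): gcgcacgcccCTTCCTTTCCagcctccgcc
Rpl4 (chr9:64173377-64173406, plus strand): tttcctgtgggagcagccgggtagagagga
Rpl3l (chr17:24727816-24727845, plus strand): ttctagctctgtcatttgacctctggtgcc

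A C followed by at least 4 bases of C or T stood exactly at 13 of the 72 annotated starts (18.1%), against 2.51% of the 32851 promoter windows of all genes. Allowing the run to begin within 15 bases of the annotated start gave 65.3% against 40.9%. Other motifs were searched on both strands of the window from 250 bases before to 50 after the start. CCGGAAG, the core that ETS factors such as GABP bind, was in 36.1% of the members' windows and 8.86% of all windows. GCCATN, the core bound by Yy1, was in 55.6% and 40.4%, and TATAAA in 8.33% and 13.6%. These matches describe the letters of the annotated windows.

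In the dioscin library most ribosomal protein messages were modestly more abundant, and nearly none differed by 2-fold. The median log2 ratio of the dioscin over the TAC library was 0.30 over the 77 genes, a ratio of 1.23. The quartiles were 0.12 and 0.54, and 65 genes lay above 0 and 12 below. Their summed counts went from 280636 to 363855, which is 16251 CPM against 21257 CPM and a ratio of 1.31 (95% counting interval 1.30 to 1.31). The 80 genes took 1.67% of all gene counts in the TAC library (exact binomial interval 1.67% to 1.68%) and 2.07% in the dioscin library (2.06% to 2.07%). With mitochondrially encoded genes left out of the total, these shares were 2.44% and 2.77%. Intervals here and below are exact 95% Clopper-Pearson intervals, cover counting error only and say nothing of the difference between animals.

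Calling a gene higher or lower took a ratio of 2 or more, or its inverse, with a counting interval that excluded 1. By this rule no member was higher, against 10.5% of all 15697 genes at or above 1 CPM, and 1 member, Rps10, was lower, against 8.77%. Among protein-coding genes alone these shares were 9.8% and 7.27%. At a ratio of 1.5, 15 members were higher (20.3% of all genes) and 1 lower (17.9%). By the counting interval alone, 59 members lay above 1 (35.1% of all genes), 5 lay below 1 (32.1%), and for 13 the interval included 1. The genes nearest to the 2-fold limit were Rps10 inside it, and Rps3, Rpl4, Rps9, Rpl23a and Rps6 outside it with ratios from 1.68 to 1.81. The plot of ranked ratios shows the family as a slope with 1 point far below it.

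**Figure D1:**
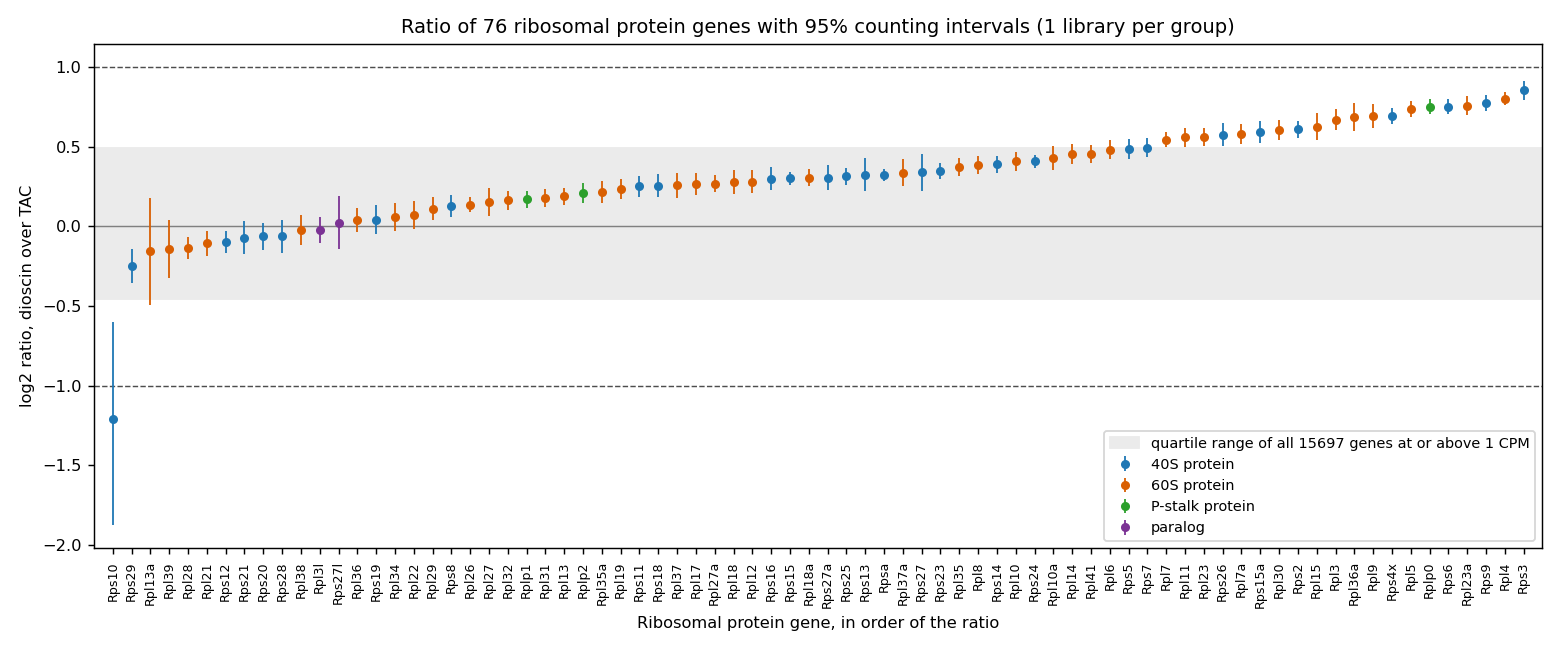
Log2 ratio of the dioscin over the TAC library (vertical axis) for 76 of the 77 ribosomal protein genes at or above 1 CPM, in order (horizontal axis), with 1 library per group, bars for the 95% counting interval, dashed lines at 2-fold and grey for the quartile range of all 15697 genes. The points run from -0.25 for Rps29 to 0.85 for Rps3, and Rps10 stands apart at -1.21.

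The members' ratios lay closer together than those of genes at large, yet they differed from each other by more than counting error. The standard deviation of the log2 ratio was 0.32 over members and 1.04 over all genes, whose median was 0.01 with quartiles of -0.46 and 0.49. It was 1.05 for the 1310 abundant genes of like length described next, 0.38 for mitochondrial ribosomal proteins, 0.51 for proteasome subunits and 0.38 for complex I subunits, so spreads of this order also occurred in other complexes. The counting interval lay above the members' own median for 31 genes and below it for 29, and included it for 17. The median log2 ratio was 0.32 for the 40S proteins (n = 30), 0.29 for the 60S proteins (n = 42) and 0.21 for the P-stalk proteins (n = 3).

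A median above 0 was shared with other abundant messages of like length. The 1310 other protein-coding genes at or above 50 CPM whose coding length fell in the members' range, 75 to 1257 bases, had a median log2 ratio of 0.39, a ratio of 1.31. Their quartiles were -0.07 and 0.76, and the counting interval lay above 1 for 67.3% and below 1 for 23.7%. Among all 3228 other protein-coding genes at or above 50 CPM the median was 0.11, with 50.1% above 1 and 39.6% below 1. Other large complexes lay on the same side of 0. The median was 0.36 for 77 mitochondrial ribosomal proteins, which form the separate ribosome of the mitochondrion, with 3 past the 2-fold rule as higher. It was 0.57 for 37 proteasome subunits, with 3 higher and 1 lower, and 0.37 for 36 Nduf subunits of respiratory complex I, with 1 higher.

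Within the family, genes with longer coding sequences had the larger ratios. The median log2 ratio was -0.00 for the 10 members of at most 300 coding bases, 0.21 for the 27 of 301 to 450, 0.29 for the 18 of 451 to 600, 0.48 for the 18 of 601 to 900 and 0.71 for the 4 above 900. Across the 77 genes, Spearman's rho between ratio and coding length was 0.48 and Pearson's r 0.42. These are descriptions across genes that share the same pair of libraries, and genes are not independent replicates. The other genes at or above 50 CPM had medians of 0.34, 0.35, 0.47, 0.44 and 0.25 in the same 5 length classes, and rho was -0.10 over the 1310 in the members' range. It was 0.04 over the mitochondrial ribosomal proteins, 0.17 over proteasome subunits and 0.52 over complex I subunits, so the family was not alone in this relation. The members' ratio also went with the level in the TAC library (rho 0.40) and against the GC content of the mRNA (rho -0.32).

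**Figure D2:**
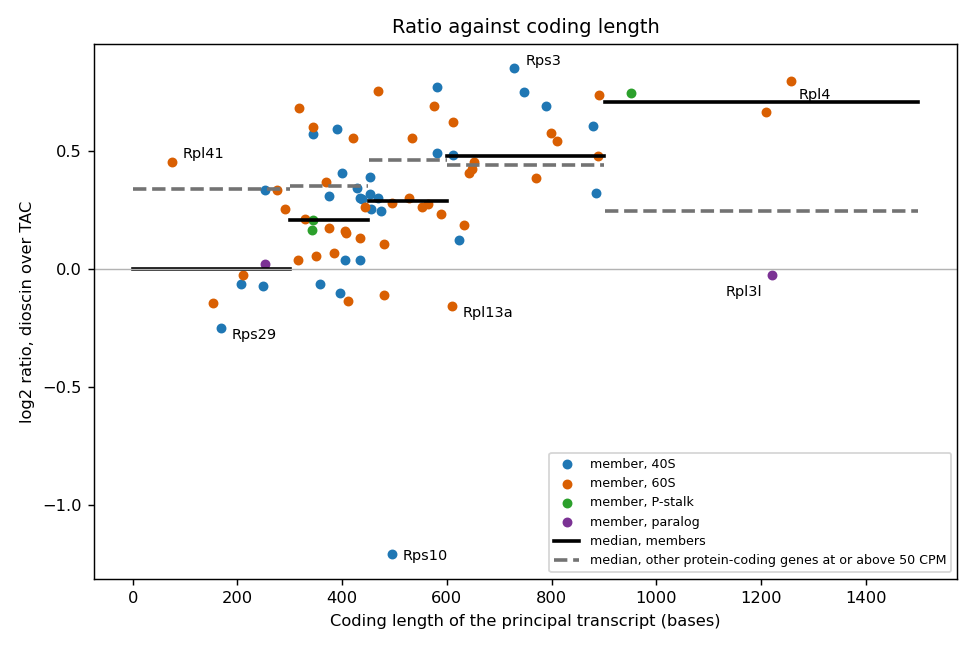
Log2 ratio of the dioscin over the TAC library (vertical axis) against the coding length of the principal transcript in bases (horizontal axis) for 77 ribosomal protein genes, with the members' median per length class as a solid line and that of other protein-coding genes at or above 50 CPM as a dashed line. The solid line goes from -0.00 to 0.71 over the 5 classes and the dashed line from 0.34 to 0.25.

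Among the 40S proteins, Rps3, Rps9 and Rps2, which line the channel by which mRNA enters, were grouped after their values were seen. Other proteins of the entry side had lower ratios, among them Rps10 and Fau, which are described further on. Rps3 had 3370 counts with TAC and 6032 with dioscin, or 195 and 352 CPM, a ratio of 1.81 (95% counting interval 1.73 to 1.88) and the highest of the 77 genes at or above 1 CPM. Rps9 had 5064 and 8590 counts (293 and 502 CPM), a ratio of 1.71 (1.65 to 1.77). Rps2 had 4648 and 7030 counts, a ratio of 1.53 (1.47 to 1.58). All 3 intervals lay above 1 and below 2. Rps6, the substrate from which the S6 kinases take their name, had 6093 and 10167 counts (353 and 594 CPM), a ratio of 1.68 (1.63 to 1.74). Rps15 and Rps23, which reach the decoding site, stood lower, at 1.23 (1.20 to 1.27) and 1.27 (1.23 to 1.32). Rpsa, the 40S protein also known as the laminin receptor, had the highest CPM of the family in the TAC library, 549 CPM from 9475 counts. With dioscin it had 686 CPM from 11746 counts. The ratio, 1.25 (1.22 to 1.29), was close to the family's median.

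In the 60S subunit the largest ratio was that of Rpl4, whose long loop reaches into the tunnel through which the new protein leaves. It had 7311 counts with TAC and 12613 with dioscin, or 423 and 737 CPM, a ratio of 1.74 (1.69 to 1.79). Rpl17 and Rpl39 line the same tunnel, and their ratios were 1.20 (1.15 to 1.26) and 0.905 (0.798 to 1.03). Rpl4, Rpl17 and Rpl39 therefore did not share a ratio. Around the tunnel's mouth, where targeting factors dock, Rpl23a had 3895 and 6526 counts and a ratio of 1.69 (1.62 to 1.76). Rpl19, Rpl26, Rpl31 and Rpl35 at the same rim lay between 1.10 and 1.29.

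Rpl5 and Rpl11 bind the 5S ribosomal RNA and, when free, the p53 regulator Mdm2. Rpl5 had 4998 and 8262 counts, a ratio of 1.67 (1.61 to 1.73), and Rpl11 had 3835 and 5593, a ratio of 1.47 (1.41 to 1.53). Both intervals lay above the family's median ratio. Near the peptidyl transferase centre, where peptide bonds form, Rpl3 stood at 1.59 (1.52 to 1.66), Rpl10 at 1.33 (1.27 to 1.38) and Rpl8 at 1.31 (1.26 to 1.36). Other genes' exons cover 46.6% of the Rpl5 mRNA and 55.4% of that of Rpl23a, and the part of this overlap in their ratios was not tested.

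The P-stalk recruits elongation factors to the ribosome, and its parts differed. Rplp0, the stalk base, is widely used as a reference gene in quantitative PCR. It had 6030 counts with TAC and 10047 with dioscin, or 349 and 587 CPM, a ratio of 1.68 (1.63 to 1.74). Its partners were nearer to 1: Rplp1 had 5485 and 6111 counts, a ratio of 1.12 (1.08 to 1.17). Rplp2 had 4129 and 4728 counts, a ratio of 1.16 (1.11 to 1.20). Rpl12, which sits beside the stalk base, stood at 1.21 (1.16 to 1.28). The interval of Rplp0 did not meet those of the other 3.

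A small set of messages did not share the family's direction. Rps29, a short zinc-binding protein of the 40S head, had 1522 counts with TAC and 1268 with dioscin, or 88.1 and 74.1 CPM, a ratio of 0.841 (0.780 to 0.906). Rpl28 had 3775 and 3406 counts, a ratio of 0.910 (0.869 to 0.954). Rpl21 and Rps12 stood at 0.928 (0.880 to 0.979) and 0.934 (0.890 to 0.980). These 4 and Rps10 are the members whose interval lay below 1, none but Rps10 by 2-fold. For Rps12 and Rpl21 this depends on which copies are counted. With the 24 genes named as its pseudogenes Rps12 came to 5299 and 5612 counts, a ratio of 1.07 (1.03 to 1.11). Most of the added counts were those of Rps12-ps3, with 1568 and 2170, which the annotation classes as protein-coding in spite of its name. Rpl21 with its 15 came to 0.994 (0.948 to 1.04), and Rpl28 to 0.947 (0.908 to 0.988). The pseudogene named for Rps29 had 0 counts, so this sum could not move its ratio.

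**Figure D3:**
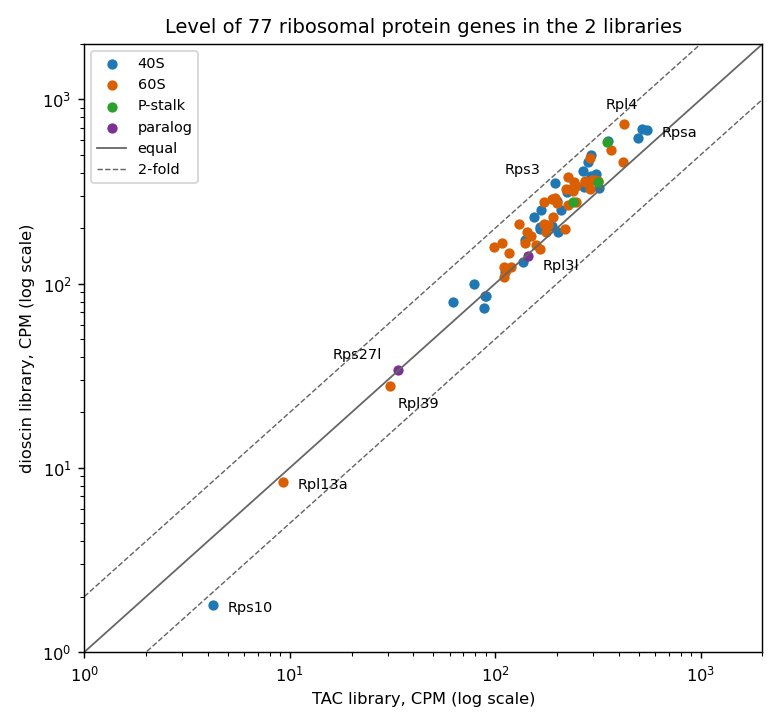
CPM of the 77 ribosomal protein genes in the TAC library (horizontal axis, log scale) and the dioscin library (vertical axis, log scale), coloured by subunit, with a solid line at equal level and dashed lines at 2-fold. Most points lie just above the solid line, and Rps10 lies below the lower dashed line at 4.23 and 1.81 CPM.

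Rps10, on chromosome 17, sits at the mRNA entry side of the 40S head, and its human counterpart is among the genes mutated in Diamond-Blackfan anaemia, an inherited failure of red cell production. The count tables gave it 73 reads with TAC and 31 with dioscin, or 4.23 and 1.81 CPM. It was thus 2.31-fold lower with dioscin (95% counting interval 1.51 to 3.68). These levels are far under the family's median of 195 and 266 CPM. Exons of an overlapping gene annotated as RPS10-NUDT3 and of the antisense Gm15420 cover 63.6% of the Rps10 mRNA, and reads in more than 1 gene are not given to any gene. Its processed pseudogenes held more reads than the gene: Rps10-ps2 had 894 and 1299 counts and Rps10-ps1 had 234 and 211. Added together, gene and pseudogenes gave 1202 and 1541 counts, a ratio of 1.29 (1.20 to 1.40), so the direction turned. Rpl24 and Rpl13a also had low counts and wide overlap: 71.5% and 59.3% of their mRNA lies in exons of other genes, and Rpl13a had 161 and 143 counts, a ratio of 0.896 (0.710 to 1.13). Rpl35, covered to 68.3%, had 4753 and 6091 counts, and Rpl30, covered to 57.4%, had 3267 and 4919. The strand of the overlap differed, but the library kit does not mark strand and the strand setting of the counting is not given. On the same strand, other genes covered 20.6% of the merged exons of Rps10, 47.0% for Rpl24 and 35.4% for Rpl13a. For Rpl35 and Rpl30 it was 0% and 4.37%, with 66.2% and 20.4% on the opposite strand. The part of overlap in these counts was not tested. In all, 12 members have over 20% of the mRNA so covered. Without them the median over 66 genes was 0.30. Rps10, the only member past the 2-fold rule, is among the 12 left out, so that none of the 66 passed was fixed in advance.

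Among other Diamond-Blackfan genes, Rps19 had 1936 and 1973 counts, a ratio of 1.03 (0.965 to 1.09), with an interval that included 1. Rpl35a, Rps24, Rps7 and Rps26 had ratios of 1.16, 1.33, 1.41 and 1.49, each with an interval above 1. The genes of this disease described here were thus spread over most of the family's range. The 4 members on the X chromosome were also spread out: Rps4x stood at 1.62 (1.56 to 1.68), Rpl36a at 1.61 (1.51 to 1.71), Rpl10 at 1.33 and Rpl39 at 0.905.

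The striated muscle paralog of Rpl3 did not share its ratio. Rpl3l, expressed mainly in heart and skeletal muscle, had 2491 counts with TAC and 2431 with dioscin, or 144 and 142 CPM, a ratio of 0.985 (0.931 to 1.04). Rpl3 had 3001 and 4727 counts, or 174 and 276 CPM, and a ratio of 1.59 (1.52 to 1.66). Per kilobase of merged exons, Rpl3 had 54.7 CPM with TAC and 87.0 with dioscin, and Rpl3l 87.8 and 86.4. Per kilobase of the principal mRNA, Rpl3 had 129 and 204, and Rpl3l 105 and 103. Which paralog stood higher with TAC thus depended on the length used. The counting intervals of their ratios did not overlap. The coding sequences match at 74.3% of 1206 aligned bases and share no stretch of 50 bases. Of the Rpl3 mRNA, however, 85.6% of windows of 50 bases also occur in annotated transcripts of other genes, against 0 for Rpl3l. Rps27 had 1082 and 1355 counts, a ratio of 1.26 (1.17 to 1.37), and Rps27l, which p53 induces, 579 and 583, a ratio of 1.02 (0.904 to 1.14). Rpl39 had 532 and 477 counts, against 3 and 8 for Rpl39l. Coding identity was 76.2% for the Rps27 pair, 85.0% for the Rpl39 pair and 84.7% for Rpl10 and Rpl10l.

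Levels of different genes can be compared per length of exon. Per kilobase of merged exons, Rps15 was highest in both libraries, with 791 CPM per kilobase in TAC and 974 in dioscin. Rplp1 was second, with 637 and 715. Rpl36 had 414 and 425, Rpl23a 266 and 450, and Rpl26 was among the 5 highest with TAC alone, at 289. Among the 77 genes at or above 1 CPM the lowest were Rps10 (1.83 and 0.784), Rpl13a (4.41 and 3.95), Rpl39 (21.5 and 19.4) and Rps19 (23.9 and 24.6), followed by Rps15a in TAC (26.6) and Rps20 in dioscin (32.1). The median was 110 in TAC and 125 in dioscin. Members thus differed widely in counted reads per length, and merged exons include rarely used ones, which lowers the value. The 2 lowest, Rps10 and Rpl13a, are also those with wide overlap described above. Per kilobase of the principal mRNA, Rps15 was still highest, at 997 and 1228.

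Features of the genes that the symbols do not fix were set beside the ratio. Of the 80 members, 77 share at least 1 window of 50 bases with an annotated transcript of another gene, and the median share of windows was 49.3%. The 10 members at or above 1 CPM with at most 20% of windows shared had a median log2 ratio of 0.40, against 0.30 for the other 67. Reads with several alignments made up 38.2% of all lines counted in TAC and 36.5% in dioscin and entered no gene count, and which genes they came from is not known here. The annotation holds 299 genes named as pseudogenes of 61 parent symbols, 6 of them classed as protein-coding, and they held 10731 counts in TAC and 13821 in dioscin, a ratio of 1.30. Of the members, 29 host small nucleolar RNA genes in their span, up to 5 in Rpl4. Their median log2 ratio was 0.30, and that of the 48 without was 0.31. The 13 genes with a pyrimidine run exactly at the annotated start had a median of 0.25 and the 44 without 0.32. For CCGGAAG the medians were 0.26 (n = 24) and 0.34 (n = 33). Among the printed starts, Rps6 with a ratio of 1.68 and Rpl28 with 0.910 both carry the run.

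The family works with other parts of the translation pathway, for which lists of genes were drawn up. The list of 18 translation factors and related genes with TOP messages had a median log2 ratio of 0.70, all 18 lay above 0, and 4 passed the 2-fold rule as higher. Of all genes at or above 1 CPM, 10.5% passed as higher and 8.77% as lower. Eef1a1, which brings aminoacyl-tRNA to the ribosome, had 19208 counts in TAC and 44656 in dioscin, a ratio of 2.35 (2.31 to 2.39). Eef2, which moves the ribosome along the mRNA, had 10626 and 22246 counts, a ratio of 2.11 (2.06 to 2.16). Npm1, a nucleolar chaperone of ribosome assembly, stood at 2.21 (2.08 to 2.36), and Btf3, a subunit of the nascent chain complex, passed narrowly with 104 and 208 CPM (interval of the ratio 1.89 to 2.12). Btf3 came under the limit with each of the 3 other scalings tried, and Eef2 with library totals. The most abundant that did not pass were Tpt1 at 1.30 (1.28 to 1.32) and Naca at 1.18 (1.15 to 1.22). The 31 initiation, elongation and release factors had a median of 0.63 and none passed, and the most abundant of them by mean CPM were Eif1 with 5155 and 9730 counts, a ratio of 1.90 (1.84 to 1.97), and Eif4g2 at 1.13 (1.09 to 1.17). A list of ribosomal proteins and related factors that the choice by symbol does not take had a median of 0.40 over 9 genes and none passed. It includes Rsl1d1, Rsl24d1 and Rps19bp1, which are not ribosomal proteins. Fau stood at 1.26 (1.19 to 1.32). Rps3a1 had 5850 and 8710 counts, a log2 ratio of 0.59. Exons of another gene on the opposite strand cover part of those of Btf3, so part of its counts is uncertain.

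Upstream regulators were mixed. Of 20 genes of the mTOR pathway to the ribosome, 2 were higher and none lower, with a median log2 ratio of -0.10. The same rule called 10.5% of all genes at or above 1 CPM higher and 8.77% lower. Ddit4, an inhibitor of mTOR complex 1 that glucocorticoids and low oxygen induce, had 326 counts in TAC and 2695 in dioscin, a ratio of 8.33 (7.43 to 9.38). Eif4ebp1, which holds back the cap-binding factor Eif4e, had 369 and 1102 counts, a ratio of 3.01 (2.68 to 3.40). Tsc2 and Larp1, the most abundant by mean CPM that did not pass, stood at 0.763 (0.721 to 0.807) and 0.926 (0.852 to 1.01). In the list of 52 genes of ribosome biogenesis and RNA polymerase I, 1 was higher, with a median of 0.15. That gene was Myc, a transcription factor that drives ribosome production, with 84 and 184 counts, a ratio of 2.20 (1.70 to 2.90), while Ncl and Rrp1 stood at 1.66 (1.58 to 1.75) and 1.38 (1.29 to 1.47). Of 10 transcription factors tied to these promoters, Max, the partner of Myc, was higher at 2.08 (1.92 to 2.26), though not with scaling by library totals. The most abundant that did not pass were Yy1 at 1.21 (1.10 to 1.33) and Gabpa at 1.19 (1.08 to 1.31). Mycn had 154 and 13 counts and was 11.3-fold lower (6.67 to 22.6). None of 10 non-coding hosts of small nucleolar RNAs passed, and their median was -0.26, with Gas5 at 0.855 (0.790 to 0.926) and Snhg14 at 0.787 (0.694 to 0.890).

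**Figure D4:**
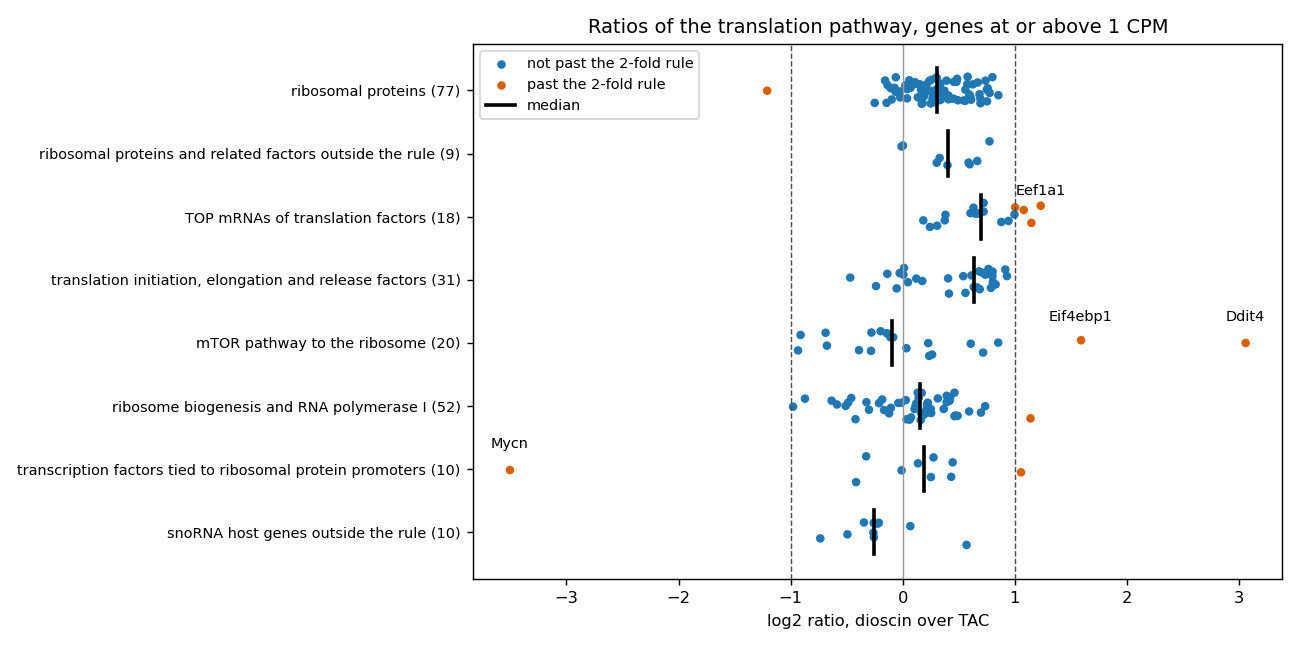
Log2 ratio of the dioscin over the TAC library (horizontal axis) for genes at or above 1 CPM of the ribosomal protein family and 7 lists of the translation pathway (vertical axis, number of genes in brackets), with a black bar at each median and orange for genes past the 2-fold rule. The medians run from -0.26 for the small nucleolar RNA hosts to 0.70 for the translation factors with TOP messages.

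Markers of some other cells also differed between the libraries. For comparison, the 2-fold rule called 10.5% of all genes at or above 1 CPM higher and 8.77% lower. All 5 atrial markers at or above 1 CPM were higher, and the list of 6 summed to 592 CPM in TAC and 17319 in dioscin, with Bmp10 and Mybphl at 0 in TAC. Nppa alone held 588 CPM of the sum in TAC. Myl7 had 13 counts in TAC and 30109 in dioscin, or 0.753 and 1759 CPM. Of 8 mesothelial markers 7 were higher (18.5 and 153 CPM, Krt8 and Krt18 at 0 in TAC), and of 6 measured fat markers 5 (Cidec, Plin1 and Retn at 0 in TAC). The sixth, Fabp4, which endothelium also expresses, had 1344 and 2575 CPM, and the fat list without it summed to 0.811 and 31.1 CPM. Of 11 fibroblast markers 5 were higher (1497 and 3735 CPM), and of 11 macrophage markers 2 were higher and 2 lower (259 and 445 CPM). Among markers at or above 1 CPM, those of B cells were lower for 6 of 7 (48.6 and 19.6 CPM). T and NK cell markers were lower for 3 of 5 (15.9 and 7.83 CPM) and neutrophil markers for 3 of 3 (20.8 and 6.48 CPM). These sums cover all 8, 8 and 9 listed genes, of which 1, 3 and 6 stayed under 1 CPM in both libraries. A scarce marker can reach 1 CPM in 1 library alone, which favours a call towards that library. Of 10 endothelial markers 2 were higher and 1, Egfl7, was lower, and they summed to 3135 and 4376 CPM with Fabp4 and to 1791 and 1801 CPM without it. The list's median log2 ratio was 0.10. Smooth muscle and pericyte markers summed to 1484 and 1468 CPM, and erythroid markers to 373 and 306 CPM. Ribosomal proteins are not particular to any of these cell types, and the part of cell composition in the ratios above was not tested.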

How the data were processed

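RNA sequencing measured 2 heart libraries, 1 per group, built from 1 ug of total RNA with an Illumina TruSeq kit that does not mark strand. The authors deposited unnormalised read counts for each gene. They list HISAT2 2.1.0, HTSeq and the mm10 build in the submitters' processing notes. Annotation release and strand setting are not given in the sources used here. All 5 HTSeq lines for reads given to no gene were left out of all sizes. Reads in no gene made up 30.0% of all lines in both libraries, reads in overlapping genes 1.49% (TAC) and 1.39% (dioscin), low-quality alignments 1.48% in both, and unaligned reads 2.59% and 2.17%. Of the 55401 gene identifiers, 55141 matched GENCODE M21 on GRCm38 without version.

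Counts were scaled with TMM (edgeR 4.0.16, R 4.3.3), and log2 ratios used a pseudocount of 0.5. With 1 library per group no p-value was computed. The interval of each ratio is exact (Clopper-Pearson, 95%), covers counting error only and does not treat PCR copies apart. The size rule needs 1 CPM in a library, a ratio of 2 and an interval that excludes 1. Alternatives were library totals, DESeq2 1.42.0 size factors, other filters, pseudocounts and thresholds, added pseudogenes, and members left out.

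Windows of 50 bases were looked up in annotated transcripts of other genes, in place of the genome. Promoter windows came from RefSeq. The principal transcript of each gene gave mRNA and coding lengths, and the coding length excludes the stop codon. Identity is that of aligned coding bases. Named were the members past the size rule, the 5 highest and 5 lowest per length, the paralogs, Rpsa, the stalk and the members next to the threshold. From each pathway list, up to 4 genes past the rule and the 2 others of highest mean CPM were named, as far as reported. Members described by their place in the ribosome, by disease or by chromosome, those with an interval below 1, and the printed starts were chosen after their values were seen. The members and all lists were chosen with earlier results of these data known. A few genes that these rules take are not reported here.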

Additional observations from a re-analysis of the deposited data

How the results depend on the processing

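No paired analysis was possible because each group had 1 library, and for the same reason no replicate could be left out. The median log2 ratio of the ribosomal proteins, 0.30, was 0.22 with library totals in place of TMM. Without members sharing over 20% of windows it was 0.40, over only 10 genes, 7 above and 3 below 0. No member was higher at 2-fold, and 15 were at 1.5-fold. The number of lower members was 1, Rps10, and became 0 with named pseudogenes added, where the log2 ratio of Rps10 turned to 0.37. It was also 0 with a 5 CPM filter and without members sharing over 20% of windows. The same held without members covered over 20% by other genes, a setting chosen after seeing the data. The filter and both of these exclusions leave out Rps10 itself, so they cannot test its ratio. The cause was not tested. Shares of all gene counts were 2.44% (TAC) and 2.77% (dioscin) without mitochondrially encoded genes, and 1.74% and 2.14% with pseudogenes. Over all genes, 1655 were higher and 1377 lower, and with a 5 CPM filter, which tests fewer genes, 1045 and 695. With library totals, added after seeing the data, the TOP translation factors had 2 higher in place of 4, the mTOR list and the biogenesis list 1 lower each in place of 0, and the transcription factors 0 higher in place of 1. Of 17 named members, 8 passed at 1.5-fold and not at 2-fold. Counting error was small for most members, and the difference between animals was not measured.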
